A study of Homo sapiens with 6 samples.

Results

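The E2F family was examined as all probes annotated to E2F1 to E2F8. The array held 9 such probes for the 8 genes, among 48803 probes and 18665 genes named by a probe in all. Of these, 6 probes, each for a different gene, were bright enough to be tested, among 9797 tested genes. HEK293T, the cell line used, derives from human embryonic kidney and expresses large T antigen of the virus SV40. There were 3 control arrays and 3 arrays of cells that had received 4 µg of cloned hsa-miR-128, all on 1 slide. The labels do not say what the controls were transfected with, if anything, nor which hairpin was cloned. They give no time from transfection to harvest, and the design text calls each set of 3 biological replicates. Controls lay on adjacent sections of the slide and transfected cells on the others, so position on the slide and group were not balanced.

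E2F proteins are transcription factors that time the entry into DNA synthesis. They bind DNA as dimers with a DP partner, except for E2F7 and E2F8, which bind without one. E2F1, E2F2 and E2F3 are grouped as activators that the retinoblastoma protein RB1 holds in check. E2F4 and E2F5 act mostly as repressors together with the RB1 relatives RBL1 and RBL2, E2F6 represses without them through Polycomb proteins, and E2F7 and E2F8 repress late in S phase. Large T antigen binds RB1, RBL1 and RBL2 and releases E2F proteins from them, and every array here carried that background. E2F3 is a reported direct target of miR-128 in glioma cells.

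The mature strand that gives miR-128 its name is shown with its seed, bases 2 to 8, in capitals, because E2F3 is its reported target. It is the same from either hairpin, at chr2:135665446-135665466 (plus strand, MIR128-1) and chr3:35744527-35744547 (plus strand, MIR128-2) of GRCh38.p14, as RefSeq gives them.
hsa-miR-128-3p: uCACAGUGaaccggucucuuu
Neither this RNA nor its precursors were measured on the array.

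E2F genes can also carry E2F motifs in their own promoters. RefSeq promoter windows of 300 bases, from 250 before to 50 after the start, were matched by symbol for 6 of the 8 genes, with 7 windows since E2F3 has a window at each of 2 starts. The words TTTCCCGC, TTTCGCGC, TTTGCCGC and TTTGGCGC, which spell the usual E2F consensus, were looked for on both strands, and no 2 matches in an E2F window overlapped. At least 1 of them occurred in 3 of the 7 windows, those of E2F1, E2F2 and the upstream start of E2F3, and in 3.31% of all 35116 windows. None occurred in the windows of E2F4, E2F6, E2F7 or the downstream start of E2F3. The 80 bases before the start are shown for the 3 activators, 5′ to 3′ on the strand of the gene, with the matches in capitals. They lie at chr20:33686386-33686465 (minus strand), chr1:23531234-23531313 (minus strand) and chr6:20401799-20401878 (plus strand) of GRCh38.p14.
E2F1: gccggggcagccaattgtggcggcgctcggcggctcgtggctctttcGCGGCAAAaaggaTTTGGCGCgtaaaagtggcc
E2F2: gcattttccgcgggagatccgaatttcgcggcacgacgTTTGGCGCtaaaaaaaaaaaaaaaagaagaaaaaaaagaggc
E2F3: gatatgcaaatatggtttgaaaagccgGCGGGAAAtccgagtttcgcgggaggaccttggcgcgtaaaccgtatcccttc
A match describes letters in the window and was not measured as a bound site here.

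The arrays had mean signals of 408 to 660, and 12995 to 14345 probes per array had a detection p under 0.01, transfected array 1 being the dimmest. Signals were corrected for background, quantile normalized and converted to log2, and groups were compared with limma over all 9797 genes. Of these, 0 (0%) had an adjusted p under 0.05, the lowest being 0.0502, while 2795 (28.5%) had an unadjusted p under 0.05. The 3 transfected arrays lay wholly above or wholly below the 3 controls in 32.8% of genes. In a fit over the 14200 kept probes, 1 (0.00704%) passed, which was not an E2F probe. The HEK293 markers VIM, KRT8, KRT18, CDH2, INA and NEFL were detected, while NEFM, PAX2 and LHX1 had a detection p under 0.01 on no array. The blood markers PTPRC, CD3E and HBB, the endothelial PECAM1 and the hepatic ALB were likewise detected on no array, and the fibroblast gene COL1A1 and the epithelial EPCAM were bright enough to be tested.

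Among the activators, E2F3 read higher on every transfected array than on any control, E2F2 showed no separation, and the E2F1 probe was not above background. None of them passed the test. E2F1, the founding member, which drives S phase genes and can also trigger apoptosis, was represented by 1 probe with signals of 150, 128 and 151 on controls 1 to 3 and 129, 142 and 130 on transfected arrays 1 to 3. Its detection p was 0.108 to 0.577, so this probe gives no level on any of the 6 arrays and no fold.

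E2F2, an activator that overlaps in function with E2F1 and E2F3, had normalized log2 intensities of 10.88, 11.07 and 10.68 on the controls and 10.65, 11.16 and 11.12 on the transfected arrays. The groups overlapped, with transfected array 1 the lowest of all 6 arrays. The log2 difference, transfected minus control, was 0.10 ± 0.21 (moderated SE, n = 3 per group; limma adjusted p = 0.774). Its 95% interval reached from -0.37 to 0.57. The sign turned to -0.20 when arrays were scaled to equal medians and to -0.10 ± 0.42 with slide position as a covariate, so no direction can be given. That covariate followed the order of the sections, all controls before all transfected arrays, so it largely coincided with group. With it the standard errors of the E2F genes were 0.39 to 0.44, against 0.19 to 0.22 in the reported fit. Every value given with slide position is imprecise for this reason.

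E2F3, an activator needed for proliferation in many cell types, had log2 intensities of 10.46, 10.46 and 10.61 on the controls and 10.90, 11.17 and 10.68 on the transfected arrays. All transfected arrays lay above all controls, but the lowest of them, transfected array 3, stood only 0.07 above control 3. The difference was 0.41 ± 0.19 (1.33-fold, limma adjusted p = 0.189), with a 95% interval of -0.02 to 0.83. The signals before normalization, 1857, 1411 and 1921 against 1320, 2242 and 1973, overlapped. In the authors' processed intensities the same arrays read 1384, 1368 and 1535 against 1767, 2376 and 1689 and did not overlap. No setting gave a value below 0.11 for E2F3. In a bulk sample, fewer cells expressing a gene and less RNA per cell cannot be told apart, which holds for every gene below.

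**Figure D1:**
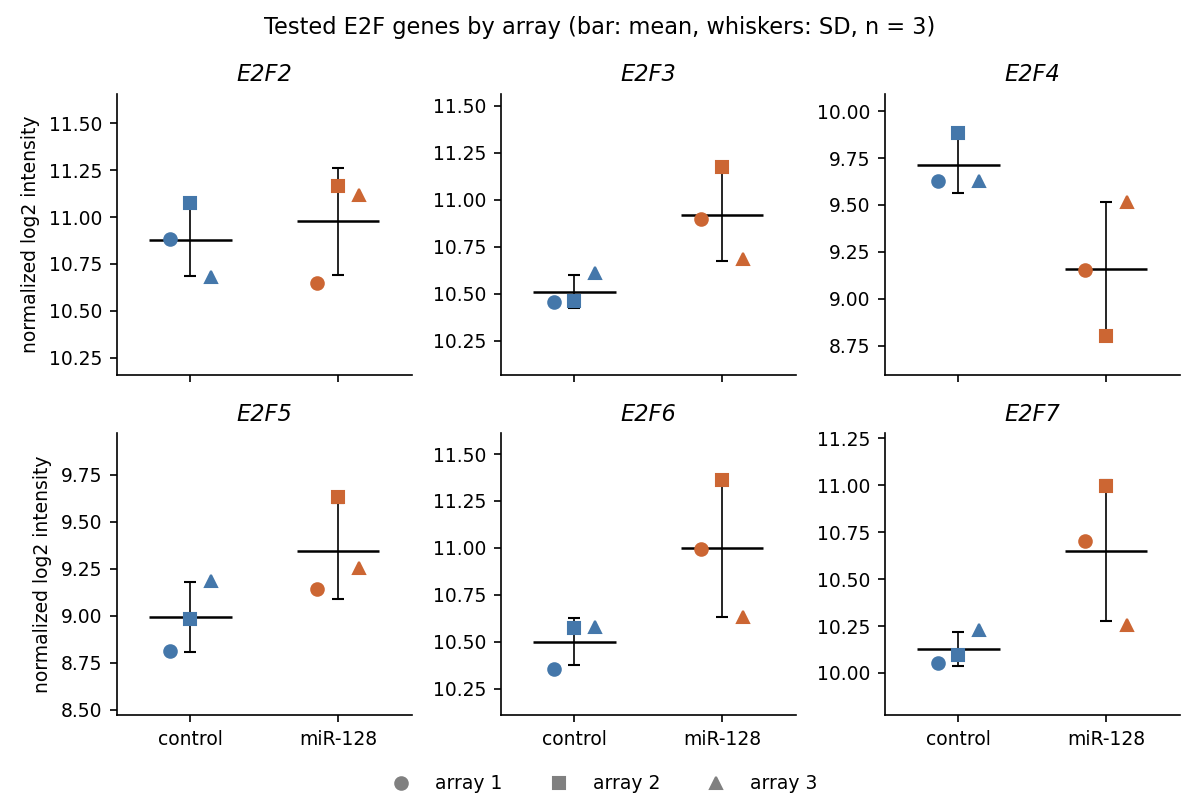
Normalized log2 intensity (y axis) of the 6 tested E2F genes in control cells and cells transfected with miR-128 (x axis), each symbol 1 array, bars and whiskers the mean and SD of 3 arrays. Every panel spans the same log2 range. E2F4 is lower and E2F3, E2F6 and E2F7 higher on all 3 transfected arrays, with transfected array 3 (triangle) nearest to the controls in these 4 genes.

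Of the repressors that work with pocket proteins, E2F4 read lower on all transfected arrays and E2F5 had a positive difference with overlapping groups. E2F4, which is abundant in resting and cycling cells and forms the DREAM complex with RBL1 or RBL2, had log2 intensities of 9.63, 9.88 and 9.63 on the controls. On the transfected arrays it read 9.16, 8.80 and 9.52. It was the only tested E2F gene with a negative difference in the reported fit. That difference was -0.55 ± 0.22 (1.47-fold lower, limma adjusted p = 0.144), with a 95% interval of -1.05 to -0.06. Raw signals separated as well, at 1104, 976 and 1020 on the controls against 455, 538 and 953, as did the authors' processed intensities, at 778, 909 and 759 against 490, 448 and 753. E2F4 was negative under all 18 alternatives, from -0.86 to -0.38. Those that changed only the filter, the averaging of probes or the intensity trend could not alter its difference, as no other E2F4 probe was kept.

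E2F5, the other repressor of this pair, had log2 intensities of 8.81, 8.99 and 9.19 on the controls and 9.14, 9.63 and 9.25 on the transfected arrays. Transfected array 1 fell below control 3, so the groups overlapped. The difference was 0.35 ± 0.20 (limma adjusted p = 0.277), and it was -0.01 ± 0.39 with slide position as a covariate.

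E2F6 and the atypical E2F7 followed nearly the same pattern over these 6 arrays, both higher on all transfected arrays and neither past the test. E2F6, which represses through a Polycomb complex, had log2 intensities of 10.36, 10.57 and 10.58 on the controls and 11.00, 11.36 and 10.63 on the transfected arrays for its bright probe. The difference was 0.50 ± 0.22 (1.41-fold, limma adjusted p = 0.177). A second E2F6 probe, annotated to another transcript, was detected on no array, with signals of 115 to 152 and a detection p of 0.154 to 0.845. E2F7, which dampens E2F target genes late in S phase, read 10.05, 10.10 and 10.23 on the controls and 10.70, 11.00 and 10.25 on the transfected arrays. Its difference of 0.52 ± 0.22 was the highest in the family (1.44-fold, limma adjusted p = 0.161). Transfected array 3 stood 0.02 above control 3, less than the error over beads of that gap, 0.13.

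E2F8, the partner of E2F7 in that role, was detected on transfected array 3 only. Its probe had signals of 144, 121 and 147 on the controls and 125, 171 and 202 on the transfected arrays. The detection p was 0.187 to 0.262 on the controls and 0.390, 0.0277 and 0.00395 on transfected arrays 1 to 3. Transfected arrays 2 and 3 were the brightest for this probe and transfected array 1 lay among the controls. With detection on 1 array the probe was not tested, and no fold is given because the transfected mean lay under the lowest signal counted as detected in controls.

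**Figure D2:**
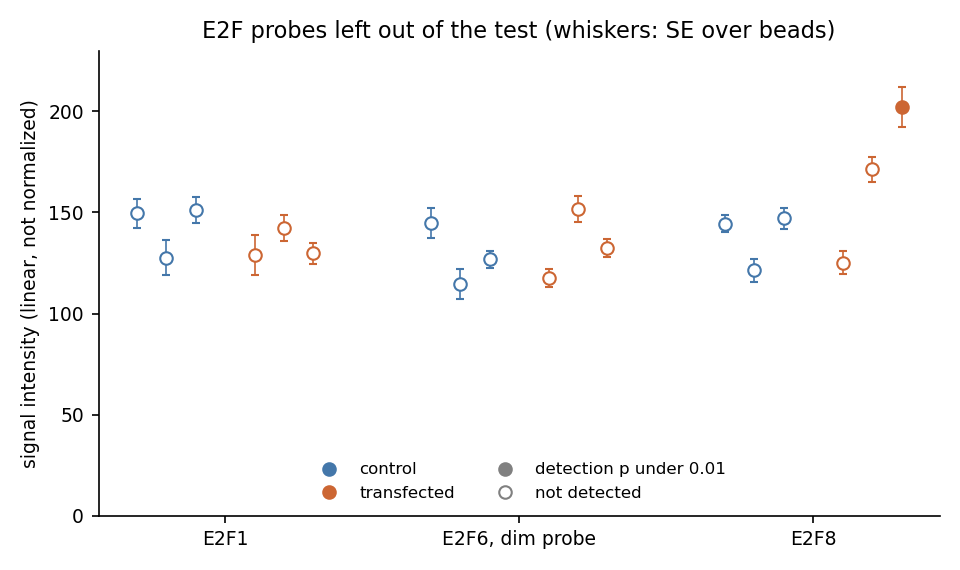
Signal intensity on the linear scale before normalization (y axis) of the 3 E2F probes that were not tested (x axis), on 3 control and 3 transfected arrays each, in replicate order within a group; whiskers are the standard error over beads. Filled points have a detection p under 0.01, which holds for E2F8 on transfected array 3, at 202, and for no other point.

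Taking the family as a whole, 5 of the 6 tested genes had a positive difference and 1 a negative one, while with arrays scaled to equal medians these were 4 and 2, with E2F2 negative, and with slide position as a covariate 3 and 3, with E2F2 and E2F5 negative. The median difference was 0.38, against -0.03 over all genes, and 0.22 with slide position. None passed the test (0% of all genes did). An unadjusted p under 0.05 was found for 2 of 6, E2F7 among the higher genes (12.4% of all genes) and E2F4 among the lower (16.1%). That count varied with the processing. It was 4 of 6 without background correction, with an offset of 50, with cyclic loess and with an intensity trend, where 29.1% to 29.5% of all genes had such a p. It was 0 of 6 with slide position as a covariate (32.6% of all genes), 1 with equal medians (24.5%) and 5 with array weights (57.8%). Among genes detected on all 6 arrays it was 3 (30.1%). With 1 array left out it was 0 to 4, against 15.7% to 37.9% of all genes. Groups did not overlap for 4 of 6, against 32.8% of all genes. All transfected arrays lay above the controls for 3, E2F3, E2F6 and E2F7 (14.7% of all genes), and below for E2F4 (18.1%). With arrays scaled to equal medians E2F3, E2F6 and E2F7 each overlapped, and E2F4 alone stayed apart (1 of 6, against 28.6% of all genes). E2F7, E2F6 and E2F3 had differences higher than or equal to those of 88.3%, 87.1% and 82.5% of genes, and E2F4 than 15.4%. With 6 genes chosen with results known, these counts describe the family and support no statement that it stands apart.

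Scaling moved these values together. With arrays scaled to equal medians, the median of all genes was -0.32, and the share of genes with a positive difference went from 47.9% to 25.1%. The differences were then 0.11 for E2F3, 0.04 for E2F5, 0.20 for E2F6, 0.23 for E2F7 and -0.86 for E2F4. Relative to the median gene under that scaling, they were 0.43, 0.36, 0.52, 0.55 and -0.55.

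**Figure D3:**
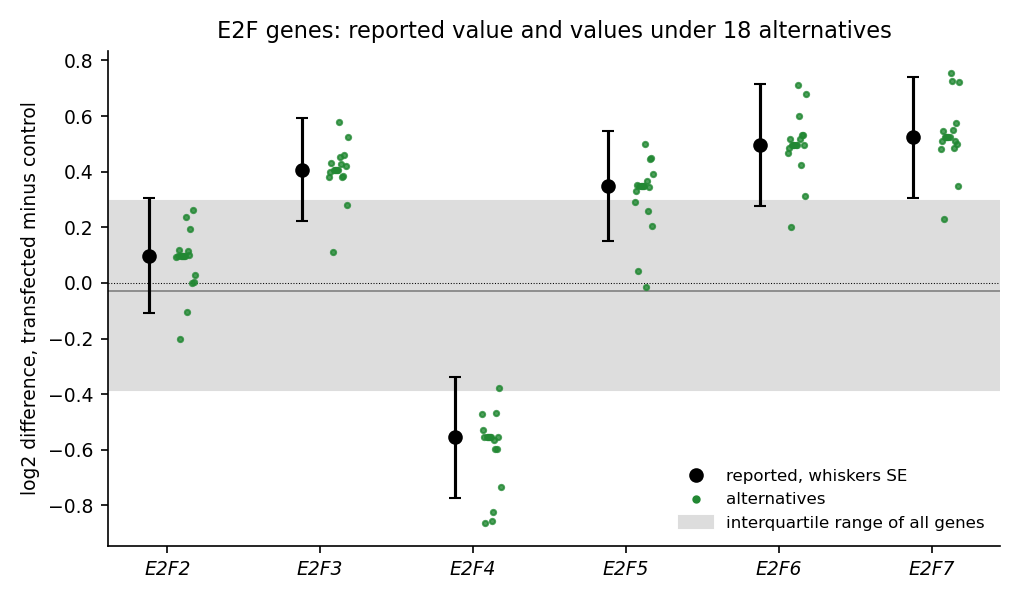
Log2 difference, transfected minus control (y axis), of each tested E2F gene (x axis). Black points are the reported values with their standard error, green points the values under 18 alternative settings, and the grey band the interquartile range of all 9797 genes, from -0.38 to 0.29. E2F4 stays below 0 and E2F3, E2F6 and E2F7 above 0 in every setting shown, while E2F2 and E2F5 cross 0.

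Transfected array 3 lay nearest to the controls for E2F3, E2F4, E2F6 and E2F7 alike. Relative to the control mean, E2F6 stood at 0.49, 0.86 and 0.13 on transfected arrays 1 to 3. E2F7 stood at 0.57, 0.87 and 0.13, E2F3 at 0.39, 0.66 and 0.17, and E2F4 at -0.56, -0.91 and -0.20. In each of these genes transfected array 2 was the farthest from the controls. Without transfected array 3, E2F4 (-0.73 ± 0.19, limma adjusted p = 0.0487) and E2F7 (0.72 ± 0.18, adjusted p = 0.0431) passed the test, and E2F6 (0.68 ± 0.19, adjusted p = 0.0563) and E2F3 (0.52 ± 0.18, adjusted p = 0.0815) did not. In that setting 1531 of all 9797 genes (15.6%) passed, while in the fit over all kept probes 0 E2F probes did. No other single array, when left out, brought an E2F gene past the test.

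In 3 of the 4 genes whose groups did not overlap, the gap between the groups was smaller than the measurement error of a single probe. Each tested E2F probe was read from 23 to 57 beads per array, with a standard error over beads of 2.99% to 7.89% of its signal. The gap between transfected array 3 and control 3 was 0.07 for E2F3, 0.06 for E2F6 and 0.02 for E2F7, each below its error over beads of 0.10, 0.07 and 0.13. For E2F4 the gap was -0.11 with an error of 0.07.

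The patterns over arrays of E2F6 and E2F7 were the closest in the family. Centred on its mean, each gene's log2 profile over the 6 arrays differed by a root mean square of 0.06 between E2F6 and E2F7, 0.10 between E2F3 and either of them, and 0.61 to 0.69 between E2F4 and E2F3, E2F6 or E2F7. Among the other 9796 genes, PPFIA1, a liprin scaffold protein, BLM, the helicase mutated in Bloom syndrome, and TBK1, a kinase of innate immunity, lay nearest to E2F3. Their root mean square differences were 0.04, 0.05 and 0.05, against a median of 0.38 over all genes. Nearest to E2F4 were UBE2O, a ubiquitin ligase, POMGNT1, a glycosyltransferase, and ARHGEF19, a guanine nucleotide exchange factor, at 0.05, 0.05 and 0.06 against a median of 0.44.

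Gene size moved with these differences. Over 9792 genes with a span in RefSeq, the Spearman correlation of the log2 difference with genomic span was 0.29, as a description across genes measured on the same arrays. E2F4, the shortest tested member at 6.76 kb, fell in the quintile of the shortest genes, whose median difference was -0.28. E2F6, E2F2 and E2F5, at 21.8, 26.0 and 37.4 kb, fell in the middle quintile, with a median of -0.002. E2F7 (44.3 kb) and E2F3 (91.8 kb) fell in quintiles with medians of 0.11 and 0.13. E2F2 lay within its standard error of the median of its quintile, and the other 5 differed from theirs by more than their standard error. The 95% interval of each of these 5 nevertheless contained the median of its quintile. For E2F4 it was -1.05 to -0.06 against -0.28. For E2F6 it did so only just, at -0.00218 to 0.99 against -0.00214. The part of gene size in the result was not tested.

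**Figure D4:**
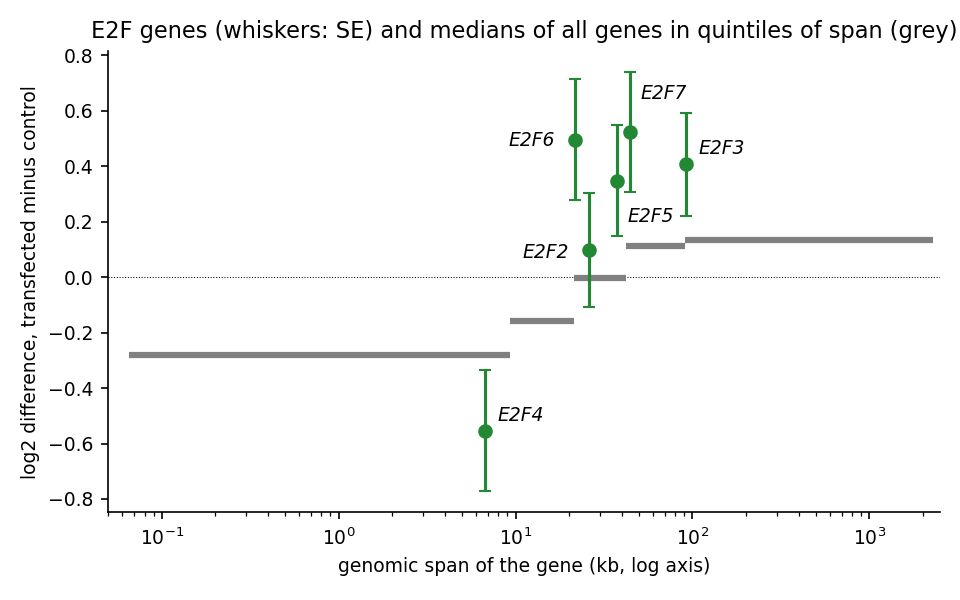
Log2 difference, transfected minus control (y axis), against genomic span in kb (x axis, log scale). Green points are the 6 tested E2F genes with their standard error, and grey lines are the medians of all genes within quintiles of span, rising from -0.28 to 0.13. E2F4, at 6.76 kb, is the only member in the quintile of the shortest genes and the only one below 0.

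The 4 tested DP partners and pocket proteins had positive differences of 0.14 to 0.48, none past the test, and with slide position as a covariate TFDP1 and RBL1 were negative. TFDP1, the main DP partner of E2F proteins, had a difference of 0.14 ± 0.22 (limma adjusted p = 0.693). Its other kept probe gave -0.01, and its sign turned under 4 alternatives, so no direction can be given. TFDP2, the second partner, had 0.44 ± 0.20 (adjusted p = 0.189), and 0.46 on its other kept probe. On both probes all transfected arrays lay above all controls. TFDP3, a DP protein best known from testis, was detected on no array. RBL1 (p107) had 0.48 ± 0.33 (adjusted p = 0.361) and RBL2 (p130) 0.14 ± 0.19 (adjusted p = 0.638), both with overlapping groups. RBL1 lay near background, at 5.13, 5.96 and 5.45 on the controls and 5.32, 6.53 and 6.13 on the transfected arrays. On controls 1 and 3 and transfected array 1 it was under the lowest value counted as detected, 5.83, 5.86 and 6.21. RBL1 was the less stable, at 0.98 in the authors' processed intensities, -0.37 with slide position as a covariate and 0.21 to 0.82 with 1 array left out. RBL2 was negative under 1 alternative, -0.16 with equal medians. RB1 had 1 probe, detected on 1 of 6 arrays, and was not tested.

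Of the factors that degrade E2F proteins, CCNF was lower on all transfected arrays. CCNF, cyclin F, which marks E2F activators and E2F7 and E2F8 for destruction, had log2 intensities of 10.95, 11.17 and 11.19 on the controls and 9.96, 10.34 and 10.60 on the transfected arrays. The groups did not overlap, and the difference of -0.81 ± 0.21 (1.75-fold lower, limma adjusted p = 0.0708) missed the threshold. It passed under 4 of 18 alternatives, in which 4.59% to 51.1% of all genes passed. It was negative under all 18, from -1.46 with slide position as a covariate to -0.64. SKP2, an adaptor that targets E2F1, had 0.10 ± 0.16 (adjusted p = 0.706) on its brightest probe and -0.32 on the other. It was negative under 2 alternatives, and FZR1, which directs the anaphase-promoting complex to several E2F proteins, was detected on no array.

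The complex through which E2F6 represses had members on both sides. Of 9 listed genes 7 were tested, 4 higher and 3 lower, with a median of 0.04. With arrays scaled to equal medians these were 2 and 5, with a list median 0.08 above that of all genes, and with slide position as a covariate 5 and 2, 0.33 above. PCGF6, the Polycomb RING finger protein that defines this complex, had log2 intensities of 10.34, 10.42 and 10.43 on the controls and 11.00, 11.84 and 11.22 on the transfected arrays. All transfected arrays lay above all controls, at a difference of 0.96 ± 0.23 (1.94-fold, limma adjusted p = 0.0647), and the other kept probe gave 0.89. PCGF6 passed under 6 of 18 alternatives, in which 3.46% to 51.1% of all genes passed. It was positive under all 18. MGA, the DNA-binding scaffold of the complex, had 0.44 ± 0.17 (adjusted p = 0.139) and RING1, its ubiquitin ligase, -0.49 ± 0.19 (adjusted p = 0.147), each without overlap of the groups. An unadjusted p under 0.05 was found for 3 of 7, against 28.5% of all genes.

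Of the MuvB core and its partners, which regulate mitotic genes, 5 of 7 were tested, 3 higher and 2 lower, with a median of 0.26. With arrays scaled to equal medians these were 2 and 3, with a list median 0.29 above that of all genes. With slide position as a covariate they were also 2 and 3, but 0.14 below. LIN9, a core subunit, had a difference of 0.51 ± 0.22 (limma adjusted p = 0.174) with overlapping groups and was the 1 member of 5 at an unadjusted p under 0.05, against 28.5% of all genes. With slide position as a covariate it was -0.18.

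Target genes of E2F proteins in S phase had differences on both sides of 0, and their balance depended on the processing. Of 39 listed, 36 had a probe named here and 34 were tested, 20 higher and 14 lower, with a median difference of 0.04. With arrays scaled to equal medians 8 were higher and 26 lower; the median of the list then lay 0.05 above that of all genes, against 0.07 in the reported fit. With slide position as a covariate 10 were higher and 24 lower, and the median was -0.53, 0.49 below that of all genes. MCM5 and RRM2 then passed the test, 2 of 34, against 11.3% of all genes. RRM2 was at -0.02 ± 0.58 in the reported fit. On control 1 and transfected array 1 it read 5.33 and 4.89, under the lowest values counted as detected, 5.83 and 6.21. Leaving out 1 array gave from 15 higher and 19 lower, without control 1, to 27 and 7, without transfected array 1. None passed the test in the reported fit, and 8 of 34 stood at an unadjusted p under 0.05, against 28.5% of all genes. Of these 8, 6 were higher (12.4% of all genes) and 2 lower (16.1%). CDC25A, the phosphatase that activates CDK2, was at 0.72 ± 0.23 (limma adjusted p = 0.0942). It was at 0.12 with slide position as a covariate (adjusted p = 0.862). Without transfected array 1 it passed, at 0.94 (adjusted p = 0.0407), as did 5.03% of all genes. MCM10, a replication initiation factor, was at 0.59 ± 0.18 (adjusted p = 0.0950), and at 0.52 on its other kept probe. SLBP, which binds histone messenger RNA, was at 0.55 ± 0.19 (adjusted p = 0.113), and at 0.21 on its other kept probe. TK1, thymidine kinase, went the other way at -0.69 ± 0.22 (adjusted p = 0.0953), with log2 intensities of 10.05, 10.43 and 10.27 on the controls and 9.35, 9.40 and 9.93 on the transfected arrays. In all 4 the groups did not overlap on the brightest probe, while on the other kept probes of MCM10 and SLBP they did. In the whole list the groups did not overlap for 9 of 34, against 32.8% of all genes.

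Target genes of G2 and M phase, which E2F4 complexes repress outside those phases, were split as well. All 23 were tested, 12 higher and 11 lower, with a median of 0.05, and with arrays scaled to equal medians 6 were higher and 17 lower, with a list median 0.04 above that of all genes. With slide position as a covariate 15 were higher and 8 lower, and the median of 0.32 lay 0.36 above that of all genes. An unadjusted p under 0.05 was found for 5 of 23, against 28.5% of all genes, 2 higher (12.4%) and 3 lower (16.1%). KIF20A, a kinesin of cytokinesis, had log2 intensities of 11.08, 11.32 and 11.25 on the controls and 10.62, 10.32 and 10.62 on the transfected arrays. Its difference was -0.70 ± 0.18 (limma adjusted p = 0.0691), and it passed under 4 of 18 alternatives, in which 3.46% to 51.1% of all genes passed. CDC20, an activator of the anaphase-promoting complex, had -0.63 ± 0.24 (adjusted p = 0.132) and PLK1, a mitotic kinase, -0.63 ± 0.22 (adjusted p = 0.119), both without overlap of the groups. ECT2, which activates RhoA in cytokinesis, had 0.58 ± 0.24 (adjusted p = 0.165) with overlap. It passed with slide position as a covariate, at 1.44 (adjusted p = 0.0399), as did 11.3% of all genes.

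Of 11 apoptosis genes reported as E2F1 targets, 6 were tested, 2 higher and 4 lower, with a median of -0.23. The split was 1 and 5 with equal medians, cyclic loess, the mean of kept probes and the authors' processed intensities. With slide position as a covariate it was 3 and 3. BCL2L11, 1 of the 2 higher genes, had 0.35 with overlapping groups. Its other kept probe gave -0.39, with all transfected arrays below all controls. An unadjusted p under 0.05 was found for 3 of 6, against 28.5% of all genes. PMAIP1 (NOXA), a BH3-only protein, had log2 intensities of 13.44, 12.49 and 12.52 on the controls and 13.98, 13.80 and 13.42 on the transfected arrays. Control 1 stood apart from the other controls and just above transfected array 3, so the groups overlapped at a difference of 0.92 ± 0.29 (limma adjusted p = 0.0950). With slide position as a covariate it passed, at 2.03 (adjusted p = 0.0253), as did 11.3% of all genes. CDKN2A, which encodes p16 and ARF, had -0.75 ± 0.28 (adjusted p = 0.133) with overlapping groups. CASP9, the initiator caspase of the mitochondrial pathway, had -0.46 ± 0.16 (adjusted p = 0.118) without overlap.

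**Figure D5:**
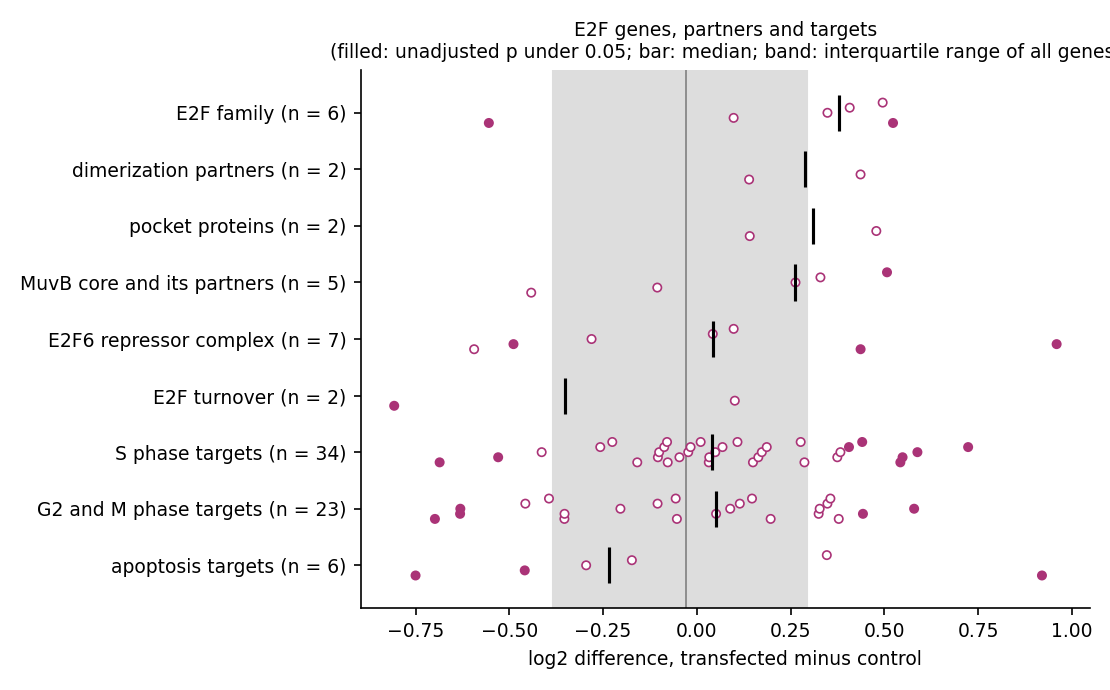
Log2 difference, transfected minus control (x axis), of every tested gene of the E2F family, its partners, regulators and target lists (y axis). Filled points have an unadjusted p under 0.05, black bars are list medians, and the grey band is the interquartile range of all genes. The S phase and the G2 and M phase targets have medians of 0.04 and 0.05 and spread to both sides, while 5 of the 6 E2F genes lie above 0 (4 of 6 with arrays scaled to equal medians, 3 of 6 with slide position as a covariate).

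Leaving out transfected array 3 brought 5 of 81 tested partner, regulator or target genes (6.17%) past the test, PCGF6 and the lower CCNF, TK1, CDC20 and KIF20A, against 15.6% of all genes. In that setting 18 of the 34 S phase targets were higher and 16 lower, and 13 and 10 of the 23 G2 and M phase targets.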

How the data were processed

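Total RNA was labelled as biotinylated cRNA and hybridised to Illumina BeadChips. The deposited table holds the mean signal intensity per probe and array, its bead count, its error over beads and its detection p-value, per the file headers. The submitters' processing notes name BeadStudio without a version. The second table holds intensities processed by the authors by a method not given in the sources used here; it served as an alternative.

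Background was corrected from the detection p-values, 16 was added, and arrays were quantile normalized and converted to log2 with the steps of neqc (limma 3.58.1, R 4.3.3). A probe was kept if 3 or more arrays had a detection p under 0.01 (14200 of 48803). Names came from the platform annotation, updated to RefSeq symbols; 27578 probes had 1 gene, 13 several, and 21212 were unnamed here. The brightest kept probe stood for its gene. Groups were compared with lmFit and eBayes, two-sided, with Benjamini-Hochberg adjustment over all 9797 genes. The fit was tested on simulated data in which genes varied independently. That test required recovery only of changes larger than those of the E2F genes, so it does not show how well theirs would be found. The number of arrays, 3 per group, limits precision. Members and lists were chosen with earlier results of these data known. Named genes are all E2F, DP, pocket protein and turnover genes, up to 4 members of each other list with the largest differences at an unadjusted p under 0.05, and the 3 genes nearest in pattern to E2F3 and to E2F4, the tested member with the largest absolute difference. Cell type markers are named too, as are a few other list members where a second probe or a setting bore on a list. The alternatives changed background correction, normalization, filter, probe choice, test and values, and left out each array. An array was left out of the fit only, after normalization and filtering, so it still shaped both.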

Additional observations from a re-analysis of the deposited data

Results flagged for a closer look

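The E2F8 probe, left out of the test, had a signal of 202 on transfected array 3 with a detection p of 0.00395, while it was not detected on any control, where its signals were 121 to 147. On transfected arrays 1 and 2 its signals were 125 and 171, neither detected at 0.01. Groups of 3 arrays were not screened for outlying arrays.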

How the results depend on the processing

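Over 18 alternatives, 97 of 108 values of single E2F genes kept their direction and side of the threshold, 7 passed it and 4 changed sign. Each tested E2F gene had 1 kept probe. Changing only the filter, the averaging of probes or the intensity trend therefore left its difference as reported, and no sign could change there. Those 4 were E2F2 with equal medians (-0.20), with slide position as a covariate (-0.10) and without control 3 (-0.00044), and E2F5 with slide position (-0.014). With 1 array left out, E2F2 lay between -0.00044 and 0.26. The count of all genes past the test was 0 as reported, 450 without background correction, 386 with an offset of 50, 273 with cyclic loess, 3 with equal medians, 328 among genes detected on all 6 arrays, 339 with an intensity trend, 5002 with array weights, 1108 with slide position, 1 with the authors' processed intensities, and 0 to 1531 with 1 array left out. It was 0 under the other 3. E2F genes past the test numbered 0 except with array weights and with 1 array left out. With array weights 5 of 6 passed, E2F3 to E2F7, against 51.1% of all genes, and 5 passed in the fit over probes. With 1 array left out 0 to 2 passed, against 0% to 15.6% of all genes. The fit over probes had 0 in each of those cases, without transfected array 3 included. Of 81 partner, regulator and target genes, 3 passed without background correction (3.70%, against 4.59% of all genes). With an offset of 50 it was 1 (1.23% against 3.94%) and with an intensity trend 2 (2.47% against 3.46%). With array weights 37 passed (45.7% against 51.1%) and with slide position 6 (7.41% against 11.3%). With 1 array left out 0 to 5 passed (0% to 6.17%, against 0% to 15.6%). The cause of these shifts was not tested. No paired analysis was possible because the labels number no replicates. Probes near background, as for E2F1 and E2F8, give no level.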

Other observations

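Among markers of HEK293 cells, 4 of 6 tested genes had a negative difference in transfected cells. KRT8, a keratin, had log2 intensities of 12.05, 11.83 and 11.89 on the controls and 10.82, 10.89 and 10.99 on the transfected arrays. Its difference was -1.02 ± 0.16 (limma adjusted p = 0.0502). It passed under 8 of 18 alternatives, in which 2.79% to 51.1% of all genes passed. NEFL, a neurofilament protein, had -0.69 ± 0.19 (adjusted p = 0.0771). Both had groups that did not overlap. INA went the other way at 0.37 ± 0.23 (limma adjusted p = 0.298), with all transfected arrays above all controls, and CDH2 had 0.02. On transfected array 1 INA read 6.10, under the lowest value counted as detected on that array, 6.21. Of the 2 tested markers of other cell types, COL1A1, a fibroblast collagen, had -0.72 ± 0.26 (adjusted p = 0.126) with overlapping groups. It read 8.48, 8.02 and 7.63 on the controls and 7.71, 7.17 and 7.09 on the transfected arrays. Its difference was -1.03 with equal medians and 0.37 with slide position as a covariate, and its part in the results on E2F genes was not tested. EPCAM, an epithelial adhesion protein, had 0.45 (adjusted p = 0.269).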
